A study of Mus musculus with 28 samples.

Results

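The enzymes that burn fatty acids were followed through mouse kidney development as 33 genes: 18 whose products work in mitochondria, 11 whose products work in or around peroxisomes, Crat and Eci2, whose products are found in both, the nuclear receptor Ppara, and the acyl-CoA synthetase Acsl1. They were chosen by name as the carnitine shuttle, the steps of mitochondrial and peroxisomal beta-oxidation, the handling of branched and 2-hydroxy acids, acyl-CoA formation and the receptor that controls many of them. A probe set (the group of oligonucleotides on an array that reads a transcript) counted for a member only if it was annotated to that symbol alone. That gave 52 probe sets for 32 of the 33 members, among 18193 genes measured in the series, and Acsl1 had none listed. Of the 32, 31 had a probe set bright enough to be tested. The exception was Acsm3, a medium-chain acyl-CoA synthetase gene of mitochondria. Its signal was 13.6 to 93.2 in 12 of the 14 samples, 229 in 1 wild type sample of E13.5 and 346 in 1 null sample of E16.5.

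RNA came from 14 mouse kidney samples in 7 groups of 2, each hybridised to both designs of an Affymetrix pair, 430A and 430B. Wild type kidneys came from embryos of 3 ages, given as days of embryonic development (E12.5, E13.5, E16.5), and from adults. The other 3 groups were kidneys at the same embryonic days from embryos with targeted null alleles of both Hoxa11 and Hoxd11, here called null, and all 3 of these groups share that genotype. Wild type embryos were CD-1 and their kidneys were pooled; each null sample held both kidneys of a single embryo of unstated strain; each adult sample held both kidneys of a single mouse of unstated strain, sex and age. Embryonic RNA (30 ng) and adult RNA (100 ng) were prepared with different kits. The submitters describe replicates as separate embryos or animals.

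Fatty acid oxidation cuts acyl-CoA chains step by step into acetyl-CoA. Long chains enter mitochondria through the carnitine shuttle, are shortened there, and their electrons pass through the electron transfer flavoprotein to the respiratory chain. Peroxisomes take very long, branched and hydroxylated chains, shorten them with oxidases that make hydrogen peroxide, and hand the products on. In the adult kidney the proximal tubule, which reabsorbs most of the filtrate, is rich in both organelles and draws much of its energy from fatty acids.

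Values are MAS5 signals, a brightness per probe set in arbitrary units scaled to the same trimmed mean on each array. Signals under a floor, 86.1 on 430A and 148.1 on 430B, were set to it before taking log2. Changes are log2 differences of group means ± SE from limma over all 14 samples, and rose, fell and called refer to a Benjamini-Hochberg adjusted p under 0.05 over the 30564 probe sets tested. Each gene was read by 1 probe set, and signals of different genes are not compared, since brightness depends on the probes. These are bulk samples, in which fewer cells of a type and less RNA per cell cannot be told apart.

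Hoxa11 gave signals of 1940 to 3431 in the 6 wild type embryonic samples and 211 to 500.1 in the 6 null samples, without overlap. Hoxd11 gave 327 to 418 and 272 to 529.6; where its probes lie relative to the targeted part is not given in the sources used here. The summed signal of 14 proximal tubule markers was 3364 to 4428 in wild type kidneys at E12.5 and E13.5, 21683 and 23030 at E16.5 and 332910 and 311954 in the adult. At each stage the null arrays were scanned on other days than the wild type arrays. Null samples were also single embryos of unstated strain, and wild type samples were pooled CD-1 kidneys. Genotype, scan day and pooling cannot be told apart there, nor can any difference of strain. The null arrays of E16.5 were also run on another scanner than all the others, so the step from E13.5 to E16.5 in null kidneys cannot be told apart from a change of scan day and scanner. On 430A the wild type arrays of E13.5, E16.5 and the adult shared a scan day and scanner. The 3' to 5' signal ratio of the actin control, which rises as transcripts are shortened, was 1.26 to 2.27 in null samples, 2.88 to 4.13 in wild type embryonic samples and 2.70 and 5.93 in the adults on 430A. The same ratio of Gapdh in wild type kidneys was 1.60 and 1.45 (E12.5), 1.99 and 2.68 (E13.5), 3.31 and 4.25 (E16.5) and 2.03 and 1.68 in the adult, and it was 1.35 to 2.16 in null samples. It was thus higher in wild type E16.5 than in its neighbouring stages, and its part in those comparisons was not tested. Xist, the RNA of the inactive X chromosome, read 2401 and 2118 in the adults. In null kidneys it read 11018 and 13295 (E12.5), 12832 and 565 (E13.5), then 281 and 123 (E16.5). The Y-linked gene Eif2s3y was under the floor in both adults, both null samples of E12.5 and the first null sample of E13.5, and read 361 in the second and 469.9 and 342 at E16.5. In the pooled wild type embryonic kidneys Xist read 2188 and 325 (E12.5), 301.5 and 525 (E13.5), then 14121 and 9191 (E16.5). Eif2s3y read 3.2 and 638, 20.9 and 9.6, then 462 and 1451 at those stages. Xist thus differed between E12.5 and E16.5 without overlap in both genotypes, upward in wild type and downward in null kidneys. Samples of the same stage also differed in these RNAs, as in wild type kidneys of E12.5 and null kidneys of E13.5. At E16.5 Xist separated wild type from null kidneys. The part of sex in the members' values was not tested.

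The sequences just before the gene starts were looked at beside the expression values. Those of 6 genes follow, the 4 peroxisomal genes with the largest rise from E12.5 to adult and the 2 mitochondrial genes that also rose from E13.5 to E16.5. Each is given as the 250 bases before a RefSeq start in GRCm38.p6, in the direction of transcription. For Hao2 and Cpt1a that start lies inside the gene's full RefSeq span, which begins at base 98895376 for Hao2 and 3322326 for Cpt1a. Capitals mark AGGTCA, the hexamer bound by nuclear receptors such as Ppara, or its reverse complement TGACCT.
Slc27a2, chr2:126552774-126553023, plus strand: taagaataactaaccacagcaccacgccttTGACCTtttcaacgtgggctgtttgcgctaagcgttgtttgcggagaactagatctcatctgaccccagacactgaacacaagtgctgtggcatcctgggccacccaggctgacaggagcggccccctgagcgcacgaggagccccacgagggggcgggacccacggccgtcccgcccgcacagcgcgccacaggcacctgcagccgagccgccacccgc
Hao2, chr3:98893231-98893480, minus strand: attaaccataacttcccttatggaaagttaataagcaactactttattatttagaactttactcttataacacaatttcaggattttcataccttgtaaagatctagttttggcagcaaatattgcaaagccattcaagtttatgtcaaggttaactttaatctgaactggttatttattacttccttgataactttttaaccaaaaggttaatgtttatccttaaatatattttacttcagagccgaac
Ehhadh, chr16:21787835-21788084, minus strand: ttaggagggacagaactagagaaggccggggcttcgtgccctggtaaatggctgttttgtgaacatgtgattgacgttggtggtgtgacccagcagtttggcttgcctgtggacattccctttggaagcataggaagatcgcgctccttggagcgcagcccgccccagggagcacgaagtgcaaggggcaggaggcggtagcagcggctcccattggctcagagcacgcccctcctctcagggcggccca
Acaa1b, chr9:119157094-119157343, minus strand: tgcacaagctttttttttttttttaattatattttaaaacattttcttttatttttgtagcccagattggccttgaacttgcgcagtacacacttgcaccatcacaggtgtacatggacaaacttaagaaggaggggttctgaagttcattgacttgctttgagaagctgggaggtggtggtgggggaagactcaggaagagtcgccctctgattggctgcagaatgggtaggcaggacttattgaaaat
Cpt1a, chr19:3323051-3323300, plus strand: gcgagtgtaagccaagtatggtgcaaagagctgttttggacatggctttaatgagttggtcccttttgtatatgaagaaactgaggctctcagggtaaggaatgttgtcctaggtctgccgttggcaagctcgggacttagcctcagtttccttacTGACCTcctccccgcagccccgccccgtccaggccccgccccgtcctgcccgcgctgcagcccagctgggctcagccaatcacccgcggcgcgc
Acadm, chr3:153944644-153944893, minus strand: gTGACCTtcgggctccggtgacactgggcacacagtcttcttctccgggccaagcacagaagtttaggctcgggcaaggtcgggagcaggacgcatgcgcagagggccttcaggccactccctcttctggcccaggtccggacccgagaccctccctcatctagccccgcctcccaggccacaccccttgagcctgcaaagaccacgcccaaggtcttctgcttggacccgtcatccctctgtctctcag

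Over windows of 250 bases before to 50 after the start, on either strand, AGGTCA was found for 6 of the 29 members with a RefSeq window (Acadm, Acadvl, Cpt1a, Echs1, Phyh and Slc27a2), or 6 of 32 windows (18.8%) against 16.3% of all 32851 windows. A pair of such hexamers with 1 base between, AGGTCANAGGTCA, was in none of the 32 windows and in 0.0396% of all. The 250 bases before the start held a median of 14 CG dinucleotides over 16 mitochondrial members, 9.5 over 10 peroxisomal members and 6 over all 32851 starts. Hao2 had 1 and Acaa1b 2, against 12 for Ehhadh and Acadm, 14 for Cpt1a and 19 for Slc27a2. The genes of the trifunctional protein, Hadha and Hadhb, lie head to head on chromosome 5 with 272 bases between their starts, so their windows overlap.

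Most members rose between the embryonic and the adult kidney, and none fell with the settings given above. Against E16.5, 24 of 31 rose in the adult and 0 fell, where 22.3% of all genes tested rose and 24.7% fell. Against E13.5, 25 rose and 0 fell (19.5% and 24.1% of all genes), and against E12.5, 29 rose and 0 fell (19.1% and 25.0%). These 3 comparisons share the adult samples. Age cannot be told apart there from RNA amount, kit or the pooling of embryonic kidneys, nor from any difference of strain. At an unadjusted p under 0.05 the counts of falls were also 0. Without the filter on brightness, 22 rose and 1 fell against E16.5, and 26 rose and 1 fell against E12.5. The median change from E16.5 to adult was 1.41 on the log2 scale over the 32 measured members and 0.02 over all genes, and both adult samples lay above both E16.5 samples for 29 of the 32 and below them for 1, Eci2, against 37.0% and 31.1% of all genes. With each sample left out in turn, 20 of the 24 calls against E16.5 held. The 4 that did not were Acaa1a, Acadl, Acadsb and Hadh.

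Within wild type embryos, 8 members rose and 1 fell from E13.5 to E16.5 (10.2% and 9.24% of all genes). The risers were Slc27a2, Hao2, Acaa1b, Ehhadh, Hacl1, Acadm, Cpt1a and Ppara, and the member that fell was Echs1. Of these, the calls of Acaa1b, Ehhadh, Hacl1, Hao2 and Slc27a2 held with each sample left out, and the count was 5 without the first wild type sample of E16.5. From E12.5 to E13.5 limma called 0 of 31 members in either direction (0.163% and 0.0991% of all genes), and 1 rose and 0 fell at an unadjusted p under 0.05. The smallest adjusted p there was 0.327, and each alternative setting also gave 0.

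Among the members, the peroxisomal genes had the larger median change. Over the 11 peroxisomal members the median log2 change was 0.83 from E13.5 to E16.5 and 2.44 from E16.5 to adult. Over the 18 mitochondrial members it was 0.09 and 1.16, and over the 17 of them tested it was 0.15 and 1.23. From E12.5 to adult the medians were 3.34 and 1.35, and 7 of 11 peroxisomal members rose more than 8-fold, against 2 of the 17 mitochondrial members tested. The median from E16.5 to adult was 2.21 against 1.11 with quantile normalization and 2.72 against 1.51 with median centring. These are for peroxisomal and tested mitochondrial members, in that order. By calls the compartments were alike against E16.5, with 9 of 11 peroxisomal and 14 of 17 mitochondrial members higher in the adult. Longer lists of the same organelles did not show that order. From E16.5 to adult the median was 1.48 over 48 further peroxisomal genes and 1.58 over 27 further genes of mitochondrial oxidation. Against E12.5 these medians were 1.40 and 1.73, and against E13.5 the second was again the higher, at 1.91. The difference in size between compartments was not tested, since genes are not replicates.

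**Figure D1:**
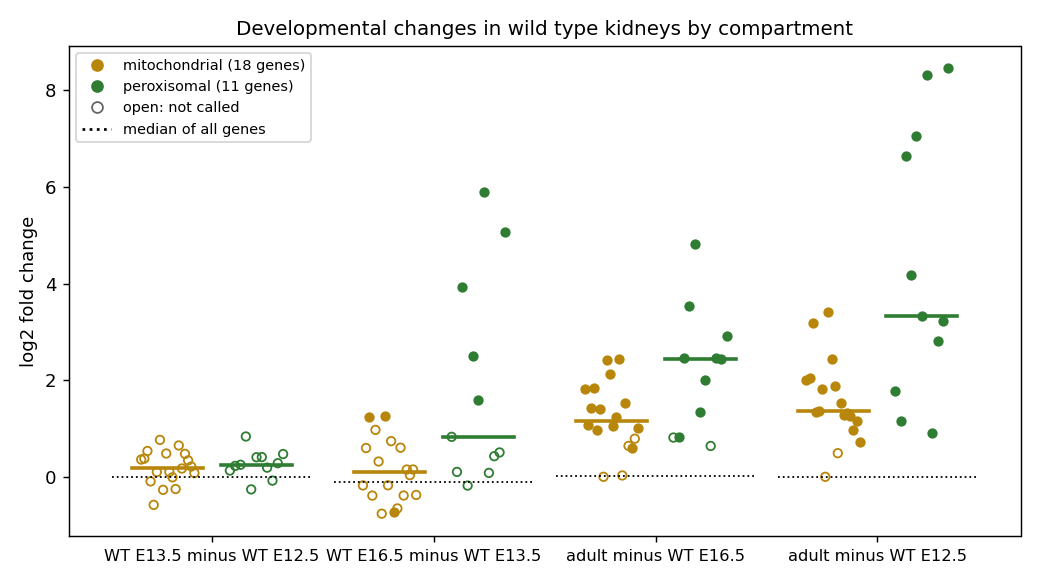
Log2 fold change (vertical axis) of each member in 4 wild type comparisons, mitochondrial genes in ochre and peroxisomal genes in green; filled points were called, thick lines are medians and the dotted line is the median of all genes. The 11 peroxisomal genes spread up to 8.46 from E12.5 to adult, while the mitochondrial genes stay at or below 3.41.

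Slc27a2, the fatty acid transporter and very long-chain acyl-CoA synthetase also known as FATP2, gave signals of 109 and 40.7 (E12.5), 129 and 140 (E13.5), 4668 and 4372 (E16.5) and 34477 and 33700 in the adult wild type kidneys. The stages E16.5 and adult did not overlap with each other or with the early stages. The rise was 33.6-fold from E13.5 to E16.5 (log2 5.07 ± 0.41, adjusted p 9.71e-06) and 7.55-fold from E16.5 to adult (log2 2.92 ± 0.41, adjusted p 8.38e-05).

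Hao2, a peroxisomal oxidase of 2-hydroxy acids, read 20.4 and 13.6 (E12.5), 104 and 125 (E13.5), 6917 and 6768 (E16.5) and then 27576 and 27440 in the adult. Both E12.5 values lay under the floor, so the adult level was at least 319-fold higher than at E12.5. From E13.5 to E16.5 it rose 59.9-fold (log2 5.90 ± 0.31, adjusted p 5.79e-07) and from there to the adult 4.02-fold (log2 2.01 ± 0.31, adjusted p 0.000185). Its window above, with 28.4% G and C, is the poorest in these bases of the members with a window. That window lies inside the gene's full span, and the bases before the outermost start were not looked at.

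The peroxisomal thiolase gene Acaa1b, whose product makes the last cut of the peroxisomal cycle, read 463 and 271 (E12.5), 480.1 and 370 (E13.5), 5469 and 7485 (E16.5) and 41458 and 30233 in the adult. It rose 15.2-fold from E13.5 to E16.5 and 5.53-fold from E16.5 to adult, without overlap at either step. Acaa1a is a near-identical copy, and 2 probe sets annotated to both genes were left out. Its own probe set, of a kind with probes shared between transcripts, read 1831 and 2297 at E16.5 and 3108 and 4275 in the adult (log2 0.83 ± 0.28, adjusted p 0.0284). How far each copy's RNA binds the other's probes is not known from the files, so the values of both are uncertain.

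Ehhadh, the peroxisomal bifunctional enzyme that carries out the middle steps of the cycle on straight chains, moved later than those 3. Signals were 124 and 107 (E12.5), 102 and 90.4 (E13.5), 517 and 573 (E16.5) and 15292 and 15562 in the adult. The step from E13.5 to E16.5 was 5.65-fold (log2 2.50 ± 0.36, adjusted p 0.000569) and the step to the adult 28.4-fold (log2 4.83 ± 0.36, adjusted p 4.22e-07). Acox2, the oxidase for branched chains and bile acid precursors, read 293 and 371 at E16.5, inside its embryonic range of 209 to 375, and 4246 and 3412 in the adult. Its rise of 11.6-fold came after E16.5. Hsd17b4, the other bifunctional enzyme, read 5268 and 3989 at E16.5 and 6028 and 8445 in the adult, short of a call (log2 0.64 ± 0.29, adjusted p 0.0956). Its second probe set, of the kind with shared probes, was called (log2 1.00 ± 0.29, adjusted p 0.0125).

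**Figure D2:**
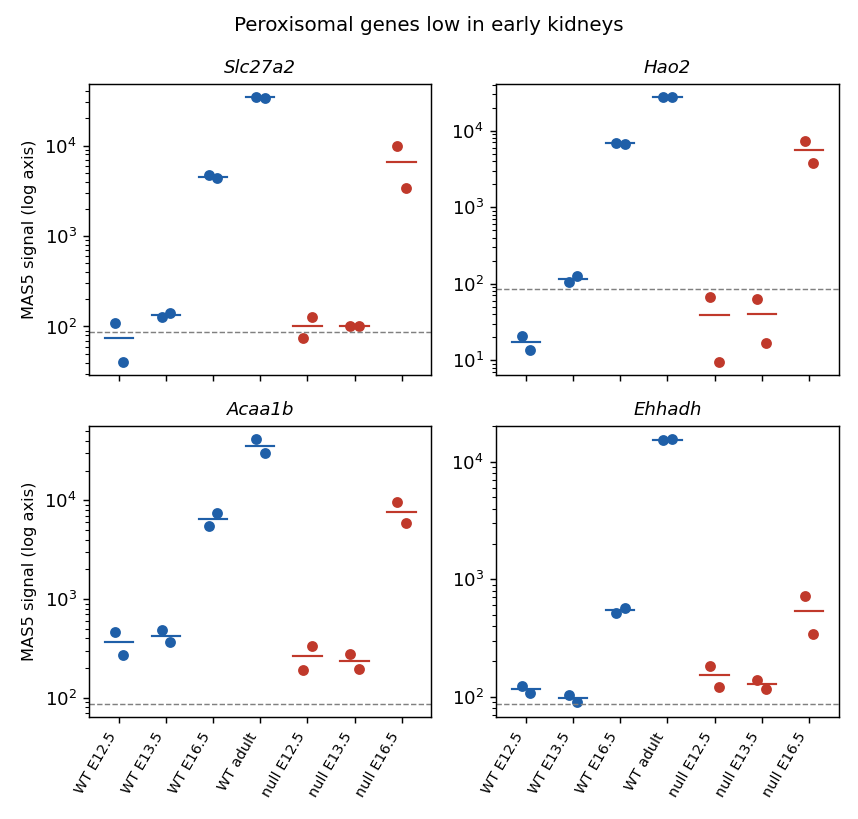
MAS5 signal (log axis) of 4 peroxisomal genes in each of the 14 samples by group, wild type in blue and null in red; bars are group means of 2 samples and the dashed line is the floor of 86.1. Each gene is low at E12.5 and E13.5 in both genotypes, higher at E16.5 in both, and highest in the adult.

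In alpha-oxidation, which removes a single carbon from branched chains, Phyh and Hacl1 both rose from E16.5 to adult. Phyh, the phytanoyl-CoA hydroxylase of its first step, read 2658 and 2993 at E16.5 and 16950 and 13864 in the adult, a rise of 5.43-fold (log2 2.44 ± 0.25, adjusted p 7.13e-06). Hacl1, the lyase that cuts the hydroxylated chain, read 474 and 416 at E13.5, 1408 and 1266 at E16.5 and 3253 and 3527 in the adult, and rose at both steps (log2 1.59 ± 0.28 and 1.34 ± 0.28). Of the membrane genes, Pex11a, which promotes peroxisome division, read 287 to 445 in wild type embryos and 2448 and 2149 in the adult (log2 2.47 ± 0.35 against E16.5). A second Pex11a probe set did not separate the adult from E16.5, with 1613 and 372 against 491 and 1063. Abcd3, which carries acyl-CoA into the peroxisome, read 6999 and 5761 at E16.5 and 8185 and 15192 in the adult, short of a call (adjusted p 0.146).

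Ppara, the nuclear receptor that senses fatty acids and switches on many of the other members, was dim on 430B at first. Its probe set read 88.6 and 191 (E12.5), 531 and 99.5 (E13.5), 1715 and 2131 (E16.5) and 16327 and 2695 in the adult. It rose from E13.5 to E16.5 (log2 2.77 ± 0.72, adjusted p 0.0158). The adults lay far apart, and the change from E16.5 was not called (log2 1.79 ± 0.72, adjusted p 0.0572). A second probe set gave another course, 444 and 1225 at E13.5, 556 and 719 at E16.5 and 2819 and 5089 in the adult, with a call in the last step (log2 2.58 ± 0.66, adjusted p 0.0065).

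All 3 genes of the carnitine shuttle rose from E16.5 to adult. Cpt1a, the liver-type carnitine palmitoyltransferase that admits long chains and is held back by malonyl-CoA, read 749 and 844 (E12.5), 801 and 543 (E13.5), 1603 and 1552 (E16.5) and 8506 and 8413 in the adult. It rose 2.39-fold from E13.5 to E16.5 (adjusted p 0.00669) and 5.36-fold from E16.5 to adult (adjusted p 1.33e-05). Cpt2, which frees the chain inside the mitochondrion, read 2284 and 1973 at E16.5, within its earlier range of 1366 to 2975, and 10437 and 8357 in the adult (log2 2.14 ± 0.31). Crat, which shuttles acetyl and other short groups, read 561 and 676 at E16.5 and 2507 and 2268 in the adult (log2 1.95 ± 0.33).

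The acyl-CoA dehydrogenases, which open the cycle and divide the work by chain length, all rose from E16.5 to adult. Acadm, for medium chains, read 2456 and 3059 (E12.5), 2841 and 5542 (E13.5), 9480 and 9143 (E16.5) and 24401 and 25792 in the adult. Of the 5, Acadm alone was called from E13.5 to E16.5 (log2 1.23 ± 0.37, adjusted p 0.0321), and then rose 2.69-fold to the adult. Acads, for short chains, went from 1189 and 1238 at E16.5 to 4965 and 3751 in the adult (log2 1.83 ± 0.32). Acadvl, for very long chains, went from 5359 and 5734 to 11761 and 18150 (log2 1.40 ± 0.26). Acadl, for long chains, and Acadsb, for short branched chains, changed by log2 1.08 ± 0.36 and 0.97 ± 0.35.

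Electrons from these enzymes pass through Etfa and Etfb, the flavoprotein subunits, and Etfdh, which hands them to ubiquinone. Etfb read 11857 and 14689 at E16.5 and 52969 and 27555 in the adult (log2 1.53 ± 0.29). Etfa read 5660 and 5493 at E12.5, 12531 and 14063 at E16.5 and 13187 and 13885 in the adult. Its values at E16.5 and in the adult overlapped (log2 0.03 ± 0.25, adjusted p 0.94). Etfdh was called only from E12.5 to adult among the 5 wild type comparisons (log2 1.27 ± 0.42).

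Of the 5 genes of the later steps of the mitochondrial cycle, 4 rose from E16.5 to adult, and the median log2 change was 1.02. Echs1, the enoyl-CoA hydratase, fell before it rose: 7253 and 7625 (E12.5), 7047 and 7731 (E13.5), 4396 and 4477 (E16.5), then 9331 and 11671 in the adult. The fall to E16.5 was log2 -0.73 ± 0.21 (adjusted p 0.027), and the call was lost when any of the 4 samples compared was left out. The rise from E16.5 was log2 1.23 ± 0.21 (adjusted p 0.000404). Acaa2, the mitochondrial thiolase, read 5435 and 5903 at E16.5 and 20888 and 19341 in the adult (log2 1.83 ± 0.20), and its other 2 probe sets rose too. Hadh, the hydroxyacyl-CoA dehydrogenase, read 25640 and 26193 at E16.5 and 44269 and 34441 in the adult (log2 0.59 ± 0.18). Its other 2 probe sets were not called there, at log2 0.44 ± 0.22 and -0.58 ± 0.60. The trifunctional protein, which joins these steps for long chains, gave log2 1.02 ± 0.23 for its thiolase subunit Hadhb, a call, and 0.79 ± 0.37 for Hadha, not a call. Another Hadhb probe set on 430B went the other way, 1211 and 1066 at E16.5 to 216 and 256 in the adult (log2 -2.27 ± 0.75, adjusted p 0.0251). The remaining Hadhb probe set, of the kind with shared probes, was not called (log2 0.57).

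Double bonds in unsaturated chains need helpers. Decr1, the dienoyl-CoA reductase, read 7352 and 8203 at E16.5 and 15515 and 16665 in the adult (log2 1.05 ± 0.25). Eci1, a mitochondrial enoyl-CoA isomerase, read 1872 and 2312 at E16.5 and 19307 and 6504 in the adult (log2 2.43 ± 0.42), and the adults lay far apart. Eci2, an isomerase of both organelles, read 4879 to 7095 in the 14 samples. It was the only member of the 31 below 0 from E16.5 to adult (log2 -0.37 ± 0.21, adjusted p 0.165). With the settings given above it was not called in any of the 11 comparisons.

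**Figure D3:**
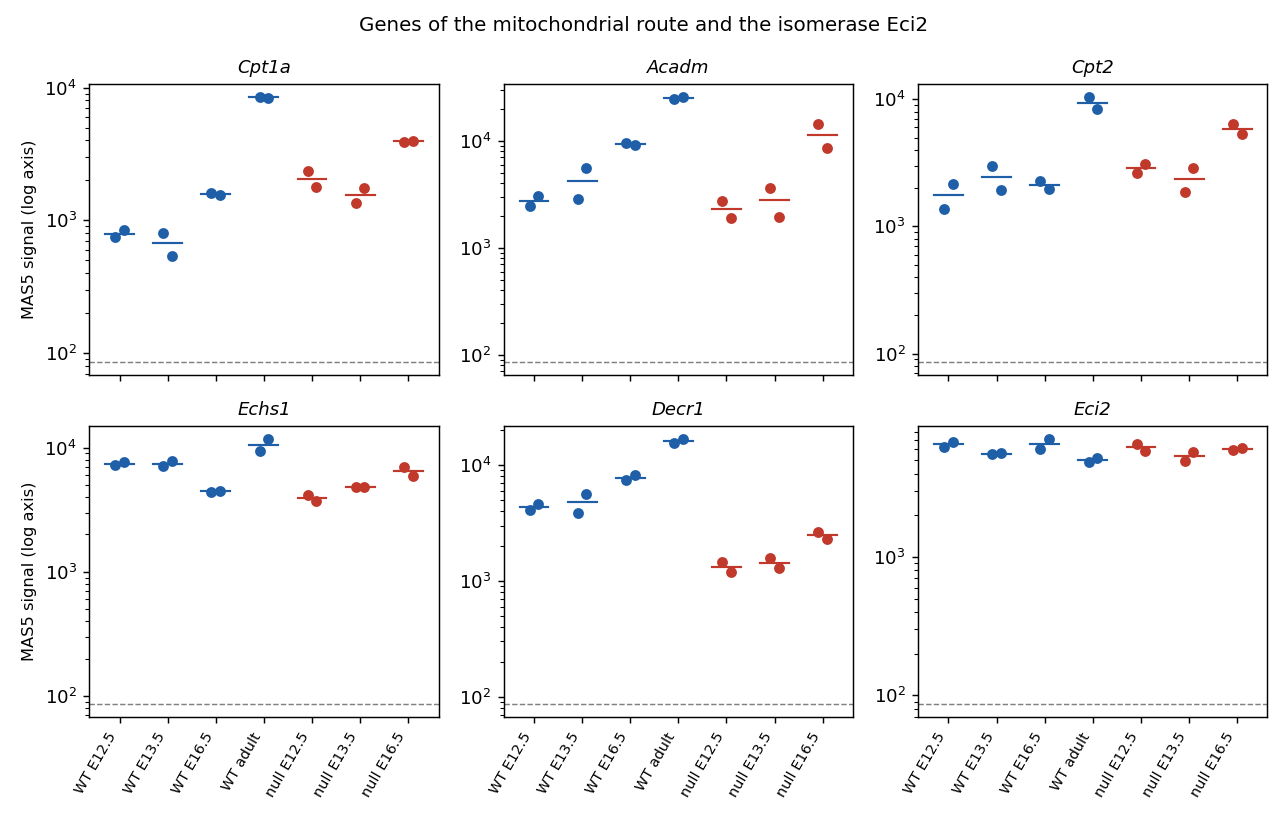
MAS5 signal (log axis) of 6 genes in each of the 14 samples by group, wild type in blue and null in red; bars are group means of 2 samples and the dashed line is the floor of 86.1. Cpt1a lies higher and Decr1 lower in null than in wild type kidneys at each embryonic stage, Echs1 dips at E16.5 in wild type kidneys, and Eci2 stays between 4879 and 7095.

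Other genes of the same processes were counted beside the members. From E16.5 to adult, 18 of 27 further genes of mitochondrial oxidation rose and 1 fell, Cpt1c, a brain-type carnitine palmitoyltransferase (log2 -1.31 ± 0.43). Acsm5 and Acsm1, medium-chain acyl-CoA synthetases, were among the largest rises (log2 4.40 ± 0.49 and 4.12 ± 0.48). Of 45 further peroxisomal genes 25 rose and 0 fell, led by Ddo, the D-aspartate oxidase (log2 5.82 ± 0.76). Of 15 transcription factors tied to oxidation, 5 rose, among them Hnf4a, Esrra and Esrrb, and 7 fell, among them Ppargc1a, the coactivator of mitochondrial biogenesis (log2 -3.31 ± 0.53). Of 22 genes of fatty acid uptake, binding, activation and ketone bodies 14 rose and 2 fell, and of 17 genes of fatty acid synthesis 10 rose and 1 fell. These lists can be set against the 22.3% and 24.7% given above.

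Markers of other cells moved with the adult comparison. All 14 proximal tubule markers measured rose from E16.5 to adult. All 4 measured adipocyte markers (of 6 listed) rose too, with a summed signal of 4400 and 6179 in the adults and 54.9 to 241 in the other 12 samples. Ucp1 and Cidea, which mark brown fat, read 1347 and 2354, and 1236 and 1258, in the adults, and were under the floor in each embryonic sample. Of other cell types, 4 of 5 markers of the loop of Henle and distal tubule and 4 of 5 macrophage markers rose, the latter with a summed signal of 3853 and 4127 at E16.5 and 23516 and 17469.5 in the adult. In the same comparison 5 of 6 stroma markers and 4 of 7 nephron progenitor markers fell. The part of these cells, fat and the growing share of tubule included, in the members' rise was not tested.

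In kidneys without Hoxa11 and Hoxd11 the low peroxisomal genes rose by E16.5 as well. From E13.5 to E16.5, 15 members rose and 0 fell in null kidneys (8.1% and 6.43% of all genes). All 7 wild type risers other than Ppara were among them. In null kidneys Slc27a2 went from 102 and 102 to 9895 and 3375, Hao2 from under the floor in both samples to 7223 and 3793, Acaa1b from 280.2 and 195 to 9496 and 5888, and Ehhadh from 139 and 115 to 723 and 345. The rise of Hao2 was at least 60.8-fold. Null minus wild type at E16.5 was not called for any of these 4, at log2 0.36 ± 0.41, -0.39 ± 0.31, 0.23 ± 0.38 and -0.12 ± 0.36. A miss of the threshold does not show equal levels.

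The null kidneys of E16.5 differed from each other. The first sample read higher than the second for 25 of the 31 members tested, with a median log2 gap of 0.32, while over all 430A probe sets tested it was higher for 7014 of 14576 (median -0.02). Its summed proximal tubule signal was 53365 against 27412. Without that first sample the count of members that rose in null kidneys was 5 instead of 15, and without either E13.5 null sample 8 or 9. Acaa1b, Hacl1, Hao2 and Slc27a2 held with each sample left out. With only the 4 samples compared in the fit, 4 rose.

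Null against wild type was called for members at shares near those of all genes or below them. At E12.5, 4 of 31 members were higher and 3 lower in null kidneys (10.9% and 7.45% of all genes). At E13.5, 1 was higher and 2 lower (14.6% and 9.24%). At E16.5, 7 were higher and 2 lower (20.8% and 15.1%), and averaged over the 3 stages 6 were higher and 4 lower (26.6% and 23.2%). With median centring the split was 3 higher and 10 lower in the average, 2 and 6 for E12.5 and 1 and 5 for E13.5. With the mean of a gene's tested probe sets it was 3 higher and 6 lower in the average, 5 and 4 for E16.5 and 0 and 4 for E13.5. The median log2 change at E16.5 was 0.62 over mitochondrial members, 0.23 over peroxisomal members and 0 over all genes. At E13.5 it was -0.27, -0.32 and -0.01. The 3 stages use different samples, and the average uses all 12.

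At E16.5 the 7 higher members were Cpt2, Hacl1, Cpt1a, Acads, Acadvl, Hadhb and Acaa2, and the lower ones were Decr1 and Acaa1a. Calls of Cpt1a, Cpt2, Decr1 and Hacl1 held with each sample left out, and the count of 9 went to 4 without the second wild type sample and to 5 without the first null sample of that stage. At E12.5 the call of Decr1 alone held, and the count of 7 went to 1, 2 and 3 without the first or second wild type sample or the second null sample. At E13.5 Decr1 and Hadh held.

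Decr1 was the member with the steadiest difference. Null kidneys read 1447 and 1181 (E12.5), 1565 and 1279 (E13.5) and 2649 and 2309 at E16.5, where wild type kidneys read 4102 and 4596, 3838 and 5649, and 7352 and 8203. The groups did not overlap at any stage, and the log2 changes were -1.73, -1.72 and -1.65, each ± 0.25 (adjusted p 0.00064, 0.000655 and 0.000414). Over the stages Decr1 was 3.25-fold lower in null kidneys. A dimmer second probe set was not called at any stage, at log2 -0.59, -0.13 and -0.31, each ± 0.42.

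Cpt1a went the other way. It read 2349 and 1776 in null against 749 and 844 in wild type kidneys at E12.5, 1350 and 1758 against 801 and 543 at E13.5, and 3884 and 3990 against 1603 and 1552 at E16.5. The changes were log2 1.36, 1.22 and 1.32, each ± 0.27, and 1.30 ± 0.16 averaged over the stages (adjusted p 3.1e-05), a 2.47-fold difference. Its other 2 probe sets fell at E16.5 (log2 -1.58 ± 0.50 and -1.66 ± 0.39), so the gene has no single direction there. Averaged over the stages they gave log2 -0.57 and -0.51, also against the probe set used, without a call. They were not called at E12.5 (log2 0.14 and 0.59) or at E13.5, where the lower was -0.72. The higher level in null kidneys thus rests on 1 probe set.

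Hacl1 read 762 and 560.1 in null against 347 and 324 at E12.5, 549 and 533 against 474 and 416 at E13.5, and 4375 and 2930 against 1408 and 1266 at E16.5. It was higher at E12.5 and E16.5 (log2 0.96 ± 0.28 and 1.42 ± 0.28). Cpt2 read 6372 and 5316 in null against 2284 and 1973 in wild type kidneys at E16.5 (log2 1.45 ± 0.31, adjusted p 0.00335), while at E13.5 the groups overlapped. Its second probe set, of the kind with shared probes, lay on the other side without a call, at log2 -0.45 at E16.5 and -0.28 in the average. Acads read 2673 and 2424 against 1189 and 1238, and Acadvl 12794 and 8316 against 5359 and 5734 (log2 1.07 ± 0.32 and 0.90 ± 0.26).

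Other members were called at some stages or in the average. Hadh read 12640 and 11512 in null against 20635 and 19373 at E12.5 and 13187 and 13006 against 24941 and 25661 at E13.5 (log2 -0.73 and -0.95, each ± 0.18), and was not called at E16.5 (-0.22). Its probe set of the kind without shared probes gave -0.44, -0.34 and 0.22, each ± 0.22, with no call. Echs1 was lower at E12.5 (4172 and 3708 against 7253 and 7625, log2 -0.92 ± 0.21). Pex11a was higher at E12.5 on both probe sets (log2 1.17 ± 0.35 and 1.81 ± 0.54). Ppara was higher at E12.5 on the probe set used (722 and 848 against 88.6 and 191, log2 2.22 ± 0.72), but over the stages its 2 tested probe sets were called in opposite directions (1.10 ± 0.41 and -1.04 ± 0.38). Hadha was higher in the average alone (log2 0.60 ± 0.21), and Acaa1a lower at E16.5 and in the average (log2 -0.99 ± 0.28 and -0.53 ± 0.16).

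**Figure D4:**
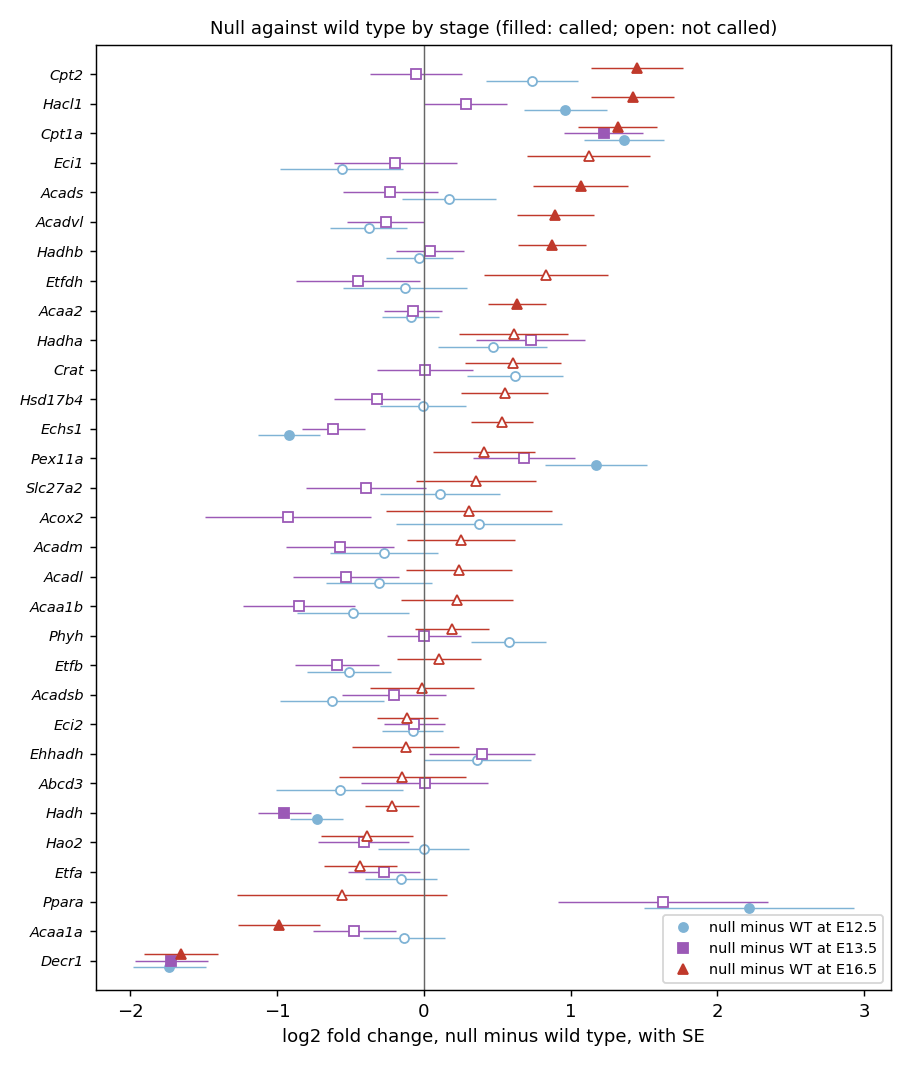
Log2 fold change with SE, null minus wild type, of the 31 members tested at E12.5 (blue circles), E13.5 (violet squares) and E16.5 (red triangles), ordered by the value at E16.5; filled symbols were called. Decr1 lies near -1.7 at each stage and Cpt1a between 1.22 and 1.36, while most other members are open symbols around 0.

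The kind of probe set moved with the genotype difference. Probe sets whose identifiers end in x_at contain probes shared with other transcripts. At E16.5, 10 of 10 such member probe sets on 430A were below 0 in null minus wild type (range log2 -2.37 to -0.01) and 7 were called lower, while of the 32 others 8 were below 0 and 8 were called higher. Over all 430A probe sets tested the median was -0.39 for 1136 of the x_at kind and 0.10 for 13440 others. On 430B, which reads few members, the medians at E16.5 were -0.48 and -0.46, with no such gap. At the earlier stages a gap was seen on 430B too, with -0.46 for x_at and -0.20 for others at E12.5, and -0.42 and -0.18 at E13.5. In the wild type comparison of adult with E16.5 the medians for x_at and others were -0.08 and -0.26 on 430A, and 0.39 and 0.16 on 430B. Acadsb, Hadh and Acaa1a are the members read by an x_at probe set, so the fall of Acaa1a in null kidneys rests on that kind alone. Of the 6 members called at E16.5 that have another tested probe set, 2 have the same call and 2 the opposite call there, Cpt1a and Hadhb. The actin ratio given above also differs between the genotypes without overlap, and its part and that of probe kind in the null calls were not tested beyond the alternative with the ratio as a covariate.

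**Figure D5:**
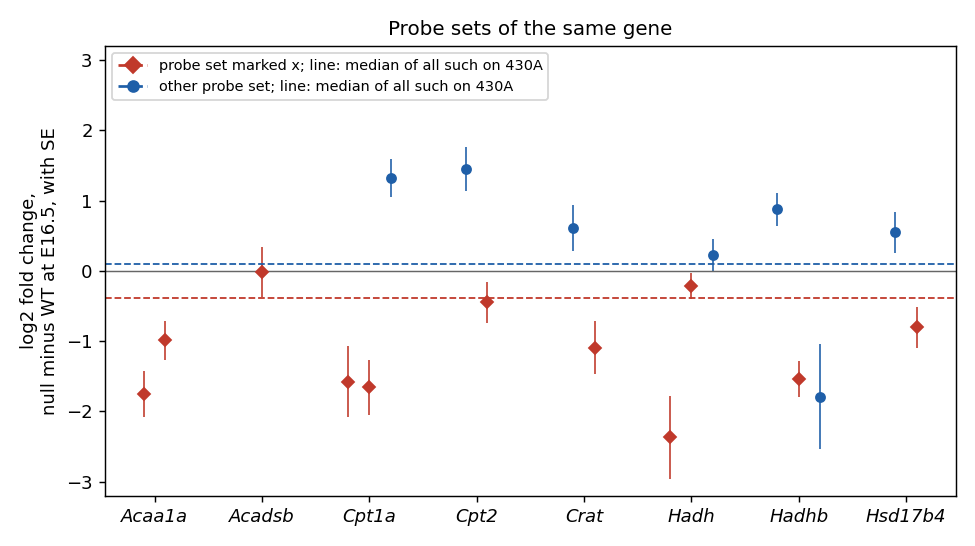
Log2 fold change with SE, null minus wild type at E16.5, for each tested probe set of the 8 members with a probe set of the x_at kind (red diamonds) and their other probe sets (blue circles); dashed lines are the medians of each kind over 430A, -0.39 and 0.10. The diamonds lie at or below 0 for each of the 8 genes, and Cpt1a and Hadhb have called probe sets on both sides of 0.

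Around the members, further genes of the same processes also moved both ways in null kidneys at E16.5. Of 27 further genes of mitochondrial oxidation 8 were higher and 3 lower, and of 45 further peroxisomal genes 14 were higher and 6 lower. Cat, the catalase that removes the hydrogen peroxide of peroxisomal oxidases, was among the lower (log2 -2.03 ± 0.27), and Lonp2, a peroxisomal protease, and Pex5, the import receptor, among the higher (log2 1.86 ± 0.22 and 1.61 ± 0.30). Of 22 genes of uptake, activation and ketone bodies 7 were higher and 6 lower, and of 17 genes of fatty acid synthesis 6 were higher and 2 lower. Acacb and Acaca, the acetyl-CoA carboxylases that make malonyl-CoA, the inhibitor of Cpt1a, were higher (log2 2.09 ± 0.35 and 1.36 ± 0.28). Of 15 transcription factors 3 were higher and 3 lower, and of 14 proximal tubule markers 6 were higher and 2 lower. Markers of other cells differed by genotype as well. Of 6 endothelium markers 5, 5 and 4 were higher in null kidneys by stage from E12.5 on (median log2 2.42, 2.32 and 2.05), with a summed signal of 15071 to 23622 in null samples and 3398 to 6545 in wild type embryonic samples. Of 6 stroma markers 4, 5 and 1 were higher, of 4 podocyte markers 2 at each stage, and of 5 macrophage markers 3, 2 and 3. Of 7 nephron progenitor markers 4, 3 and 3 were lower, and of 4 erythroid markers 3 were lower at E16.5. The summed signal of 7 ureteric and collecting duct markers was lower in null kidneys at each stage, at E16.5 7763 and 6508.5 against 20522 and 18587. Single markers of that list went both ways, with Calb1 lower and Gata3 higher in null kidneys at each stage. The part of all these cells in the members' null calls was not tested.

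The step from E13.5 to E16.5 differed between the genotypes for 2 members, Cpt2 (log2 1.51 ± 0.44, adjusted p 0.0403) and Echs1 (log2 1.15 ± 0.30, adjusted p 0.0238), both more upward in null kidneys, and for none in the other direction (5.03% and 4.76% of all genes), so the share of members is near that of all genes. Cpt2 went from 1862 and 2871 to 6372 and 5316 in null kidneys and from 2975 and 1934 to 2284 and 1973 in wild type kidneys. Echs1 went from 4843 and 4795 to 6977 and 5925 in null kidneys and fell in wild type kidneys as given above. Neither call held with each sample left out, and the second Cpt2 probe set was not called (log2 0.30). The count was 0 with the actin ratio as a covariate and 8 with median centring. Members called in the null step and not in the wild type step, such as Acadl, Acadvl and Hsd17b4, were not shown to differ between the genotypes.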

How the data were processed

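Per the submitters' processing notes the authors made the deposited intensity values with MAS5, and each array's trimmed mean is the same. MAS5 settings and detection calls are not given in the sources used here. No depth applies to arrays, and 2 samples per group limit the precision. For 2 arrays, both of adult replicate 2, the run record names the other design's chip; values were used as labelled.

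Signals were floored at the 20th percentile of each design and log2 transformed. Control probe sets (64 on each design) were dropped, and 100 probe sets found on both designs were taken from 430A alone. A probe set was tested if a group mean exceeded the design's median (50th percentile), which left 30564 of 45037, for 14128 genes. Each design was fitted with limma 3.58.1 in R 4.3.3, group means over 14 arrays, 7 residual degrees of freedom, eBayes with trend, two-sided, with Benjamini-Hochberg adjustment over both designs and calls at 0.05. A gene was read by its tested 430A probe set first, then by the highest mean. Each member is named; per-sample values are given for those called most. The fit was tested on simulated data. Members and lists were chosen with earlier results of these data known. Sequences are from RefSeq.

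Alternatives were scaling, floor, filter, trend, blocks, the actin ratio, the samples fitted, the mean of probe sets, and each sample left out.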

Additional observations from a re-analysis of the deposited data

Results flagged for a closer look

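For 2 members the step from E13.5 to E16.5 differed between null and wild type kidneys by the interaction contrast in limma. Cpt2 differed by log2 1.51 and Echs1 by log2 1.15, both more upward in null kidneys, with 2 samples per group. Cpt2 had an adjusted p of 0.0403 and Echs1 of 0.0238. Neither call held with each sample left out in turn. Upward calls of this contrast made up 5.03% of all genes, so 2 of 31 members is near that share. The count was 0 with the actin ratio as a covariate and 8 with median centring, and another Cpt2 probe set gave log2 0.30 without a call.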

How the results depend on the processing

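The counts of members called in the adult against E16.5, E13.5 and E12.5 stayed within 1.5 times of 24, 25 and 29 under each alternative run. Without the filter, 1 of the calls against E16.5 and 1 of those against E12.5 was a fall. With each sample left out in turn they were 20 to 25, 21 to 25 and 23 to 29. Counts with larger shifts under that alternative were 5 to 10 for wild type E13.5 to E16.5, 5 to 15 for the same step in null kidneys, 1 to 7, 2 to 5 and 4 to 11 for null against wild type by stage in that order from E12.5 to E16.5, 6 to 11 for their average, and 0 to 4 for the difference of the steps. With the actin ratio as a covariate the null counts were 2 at E12.5, 5 in the average and 0 for the difference of the steps. Quantile normalization gave 4 at E12.5 and 4 for the difference of the steps. Median centring gave 6 at E13.5 and 8 for the difference, and moved the split of calls to 2 higher and 6 lower at E12.5 and 3 higher and 10 lower in the average. With the samples compared alone in the fit the counts were 5 for wild type and 4 for null E13.5 to E16.5, 0 for null at E13.5 and 1 for the difference. The mean of a gene's probe sets gave 4 at E12.5 and 1 for the difference, and no trend gave 1. That mean also moved the split of null calls to 3 higher and 6 lower in the average (6 and 4 before), 5 and 4 for E16.5, then 0 and 4 for E13.5. Median centring left the median of 14018 genes at -0.32 for null at E12.5 and 0.27 at E16.5. The cause of these shifts was not tested. Fits that left samples out also rest on fewer samples, and the part of that number was not separated from the samples' own values.

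Replicate numbers are shared between groups, but same-numbered samples deviated together in only 7 of 21 pairs of groups at a correlation over 0.1 (median -0.02), so they do not pair the samples. With the number as a replicate block the count for the difference of the steps was 1 instead of 2, and the other counts stayed within 1.5 times, for example 25 for adult against E16.5.

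Of the single calls of named members, 2993 settings kept the call, 327 lost it and 5 reversed. Many of these were fits that left out a sample outside the comparison, which bears on the call mainly through the shared spread. The number kept is therefore in part fixed by the design. Ppara in the average of null against wild type went to -0.21 with the actin ratio as a covariate. With the mean of a gene's probe sets Cpt1a in null at E16.5 went to -0.64, and Hadhb to -0.23 for adult against E16.5, -0.0048 for adult against E12.5 and -0.82 for null at E16.5; the mean includes the probe sets with opposite values given above. Signals near or under the floor limit what can be said of Acsm3, of Slc27a2 at E12.5, and of Hao2 and Ppara at E12.5 and E13.5.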
